A study of Mus musculus with 8 samples.

Results

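Mouse liver held 2058 C/EBPα sites called as bound with extra C/EBPα and not called in the matching empty-vector libraries. All were nonetheless called in every library of a second, floxed cohort, controls and Trib1 knockouts alike. C/EBPα, a transcription factor of the basic leucine zipper class found in hepatocytes, binds DNA as a dimer. It is known for its part in glucose, lipid and plasma protein gene control. Tribbles-1, the product of Trib1, is a pseudokinase known to bring C/EBPα to the ubiquitin ligase COP1, which marks C/EBPα for degradation. Chromatin immunoprecipitation followed by sequencing (ChIP-seq) records where such a factor sits on the genome, and a peak is a stretch where its reads pile up.

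Peaks from 8 deposited lists were joined into 113353 sites wherever they overlapped by at least 1 bp. The 2058 sites were selected on these calls themselves: a peak in both AAV_Cebpa lists, in neither AAV_Null list, and in all 4 Trib1 lists. They are 9.30% of the 22124 sites gained in AAV_Cebpa (present in both of its lists and in neither AAV_Null list), and 5.90% of the 34866 sites called in all 4 Trib1 lists. They are termed floxed-bound gained sites below. Both percentages follow from the rule and are descriptions.

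The groups had 2 libraries each, from livers of mice aged 8 to 10 weeks, on chow and fasted for 4 hours, with the strain labelled C57B/6 throughout. Trib1_WT mice carried Trib1 flox/flox and received 1.5e11 gc of AAV_Null, an adeno-associated virus (AAV) vector without an insert named in the labels. Trib1_LSKO mice carried the same floxed alleles and received 1.5e11 gc of AAV_Cre, coding for the recombinase that cuts out floxed DNA. AAV_Null and AAV_Cebpa mice were wild type and received 1e12 gc of the empty vector or of one carrying C/EBPα, so all 8 libraries came from vector-treated animals. The promoter driving either insert is not given in the sources used here. The floxed cohort and the AAV_Null group differed in genotype and in vector dose, which cannot be told apart. Labels do not say whether replicates were separate animals, so spreads between them may be technical. Peak lists hold no transcripts, so neither the loss of Trib1 nor the liver origin could be checked against marker genes. In whole liver, binding in fewer cells and weaker binding per cell cannot be told apart.

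Lists held 46348 to 80394 peaks, shortest in AAV_Null replicate 1 and longest in AAV_Cebpa replicate 2. Depth relative to AAV_Null replicate 1, read from the step between signal values, was 1.17 in AAV_Null replicate 2, 1.14 and 1.93 in Trib1_WT, 1.18 and 1.28 in Trib1_LSKO, and 1.85 and 2.27 in AAV_Cebpa. The AAV_Null libraries that define absence here were thus among the shallowest, and the part of depth in that absence was not tested directly. After thinning every library to the depth of AAV_Null replicate 1, 1810 sites met the rule. Reading absence from a single AAV_Null list gave 3326 sites without replicate 1 and 3225 without replicate 2.

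Signal values are the authors' own and were read only as ranks inside a list. A percentile of 100 is the strongest peak of its list. In Trib1_WT, the floxed-bound gained sites had median percentiles of 36.6 and 30.9. In Trib1_LSKO the medians were 48.6 and 47.7, and in AAV_Cebpa 53.4 and 66.5. Sites called in all 8 lists, 24318 in number, had medians of 73.9 and 74.6 in Trib1_WT, of 72.3 and 73.6 in Trib1_LSKO, and of 73.4 and 78.4 in AAV_Cebpa. The selected sites had their lowest medians in the Trib1_WT lists and their highest in the AAV_Cebpa lists, and lay below the all-8 sites in all 6 lists that hold them. Medians are set side by side across lists as a description, since list length differs. The Trib1 lists held 50075 to 54691 peaks and the AAV_Cebpa lists 59564 and 80394. The all-8 sites also had their highest median, 78.4, in the longest list.

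**Figure D1:**
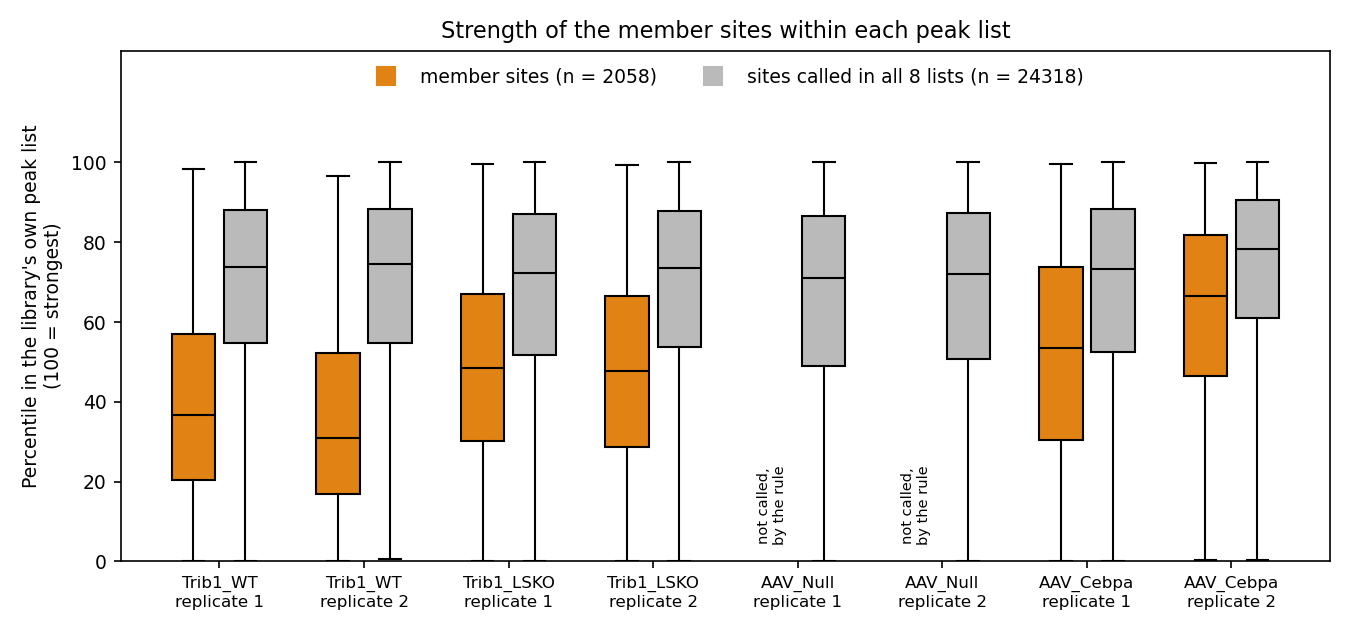
Percentile of the 2058 floxed-bound gained sites (orange) and of the 24318 sites called in all 8 lists (grey) within each library's own peak list, where 100 is the strongest peak. Boxes span the quartiles with the median as a line, and whiskers reach the lowest and highest site; orange medians lie at 36.6 and 30.9 in Trib1_WT and at 48.6 and 47.7 in Trib1_LSKO.

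These sites were also counted by their strength over several lists at once. In the strongest 50% of all 6 lists that held them were 328 (15.9%, 95% exact binomial interval 14.4% to 17.6%), and 401 (19.5%) were in the weakest 50% of all 6. Both AAV_Cebpa lists had 1113 of them (54.1%) in the strongest 50%, both Trib1_LSKO lists 849 (41.3%) and both Trib1_WT lists 494 (24.0%). These intervals cover the counting of sites only. A peak among the weakest 10% of at least 1 Trib1 list was found at 432 sites (21.0%). Counts over several lists were not made for other sites, so they have no background. In single lists, the strongest 50% held 27.2% (Trib1_WT replicate 2) to 69.97% (AAV_Cebpa replicate 2) of the selected sites. For sites called in all 8 lists, this share was 76.9% (AAV_Cebpa replicate 1) to 84.8% (AAV_Cebpa replicate 2) in the same 6 lists.

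The strongest of them in the floxed livers lay on chromosome 15, 24999542 to 24999775 (all coordinates are build mm9, 1-based). Its percentiles were 97.3 and 96.5 in Trib1_WT, 99.0 and 98.9 in Trib1_LSKO, and 82.0 and 87.7 in AAV_Cebpa. It stood high in all 6 lists although no AAV_Null peak lay within 403580 bp. Next came chromosome 15, 85062704 to 85062974, at 98.4 and 96.5 in Trib1_WT, 96.3 and 98.4 in Trib1_LSKO, and 97.3 and 95.4 in AAV_Cebpa. That site had an AAV_Null peak at a distance of 417 bp, so a control peak stood beside it. A site on chromosome 1, 104414654 to 104414882, was at 92.8 and 95.5 in Trib1_WT and at 99.5 and 99.3 in Trib1_LSKO, but only at 42.5 and 75.8 in AAV_Cebpa. High occupancy in floxed livers thus did not go with an equally high place in the overexpression lists at every site. The remaining 2 of the 5 strongest were chromosome 2, 148833462 to 148833699, and chromosome 12, 33451511 to 33451735, with mean percentiles of 97.2 and 96.1 over the 4 Trib1 lists.

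At the other end, the weakest lay on chromosome 12, 72087481 to 72087779, at 0.672 and 4.10 in Trib1_WT and 2.84 and 0.636 in Trib1_LSKO. In AAV_Cebpa the same site was at 22.5 and 56.8. A second weak site, chromosome 2, 128685578 to 128685803, was near the bottom of all 6 lists, at 0.672 and 7.06 in Trib1_WT, 0.579 and 0.636 in Trib1_LSKO, and 0.0411 and 3.10 in AAV_Cebpa. The second site thus lay just inside the call in most lists, while the first stood higher in both AAV_Cebpa lists than in the Trib1 lists.

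Just outside the rule were 2435 sites that differed only by a peak in 1 AAV_Null list. Their median percentile in that AAV_Null list was 24.4, and their median of the mean over the Trib1 lists was 44.1, against 41.3 for the selected sites. Another 1643 gained sites were called in 3 of the 4 Trib1 lists, with a median of 25.3 over the lists that held them. The missing list was Trib1_WT replicate 1 for 500 and replicate 2 for 716 of these, and Trib1_LSKO replicate 1 for 228 and replicate 2 for 199. This split was not made for other sites called in 3 of the 4 Trib1 lists, so it has no background. Most gained sites, 12649 (57.2%), were in no Trib1 list. Their median percentiles in AAV_Cebpa were 27.3 and 45.0, below the 53.4 and 66.5 of the floxed-bound ones.

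The comparison that the rule did not use is that of the floxed groups with each other. It asks whether ranks differed between Trib1_LSKO and Trib1_WT at sites called as gained in AAV_Cebpa. All 4 Trib1 lists hold these sites, so each library was ranked over the same 34866 sites. List length thus did not enter the ranking itself, but it did enter which sites were called. Floxed-bound gained sites ranked higher in Trib1_LSKO than in Trib1_WT. Their median rank percentile was 18.2 and 13.9 in the Trib1_WT libraries and 33.5 and 29.5 in the Trib1_LSKO libraries. Both knockout libraries lay above both controls. The group means were 31.5 ± 2.8 and 16.0 ± 3.1 (SD, n = 2 libraries each), a difference of 15.4 points. The planned exact permutation test (two-sided, all 6 ways to label the 4 libraries) cannot go below p = 0.33 with 2 against 2, and with both knockout libraries above both controls it takes that value, so it cannot pass a threshold of 0.05. Over the sites called in all 8 lists the corresponding difference was 0.31 points. The median difference per site there had the opposite sign, at -1.59 points, and 40.9% of those sites had a higher mean rank in Trib1_LSKO.

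Site by site, 1046 of the 2058 (50.8%) had both Trib1_LSKO ranks above both Trib1_WT ranks, against 22.8% over all 34866 sites. The opposite order held at 217 (10.5%), against 32.0% over all sites. At the remaining 795 the groups overlapped. The share with Trib1_LSKO on top was thus more than the background and the share with Trib1_WT on top less. The mean rank was higher in Trib1_LSKO at 1506 sites (73.2%), against 39.3% of the 32808 other sites. The median difference per site was 7.91 points (quartiles -0.66 and 22.3), and -2.14 points at the other sites. These shares carry no test, because the sites were chosen with earlier results in view. Those results already showed Trib1_LSKO lists closer to AAV_Cebpa than Trib1_WT lists are, so the direction is not independent evidence.

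**Figure D2:**
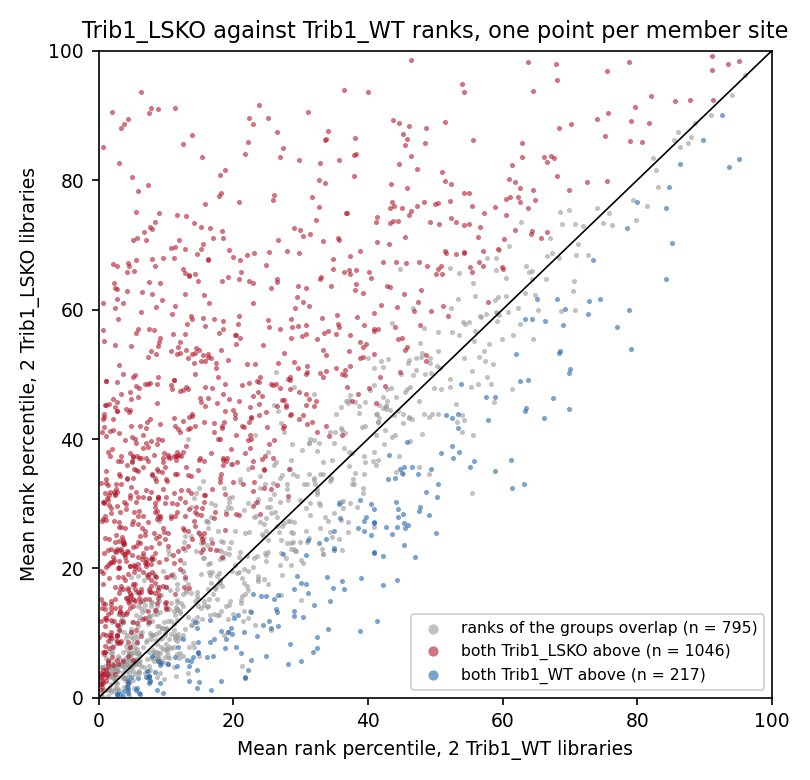
Mean rank percentile of each of the 2058 sites in the 2 Trib1_LSKO libraries (vertical) against the 2 Trib1_WT libraries (horizontal), ranked over the 34866 sites called in all 4 Trib1 lists, with the line of equal rank. Red points (1046) have both Trib1_LSKO ranks above both Trib1_WT ranks, blue points (217) the reverse, and grey points (795) overlap. Red points reach much farther from the line than blue ones, but points of low Trib1_WT rank have more room above the line than below it.

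Large differences were mostly toward Trib1_LSKO. A non-overlapping difference of more than 30 points in favour of Trib1_LSKO was seen at 341 sites (16.6%), against 3.63% of the other sites in all 4 Trib1 lists. One of more than 30 points in favour of Trib1_WT was seen at 1 site (0.0486%), against 0.832%. These counts were not matched on strength, and a site of low Trib1_WT rank can rise farther than it can fall.

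The largest differences were at sites with peaks near the bottom of the Trib1_WT lists and near the top of the Trib1_LSKO lists. Chromosome 17, 71094646 to 71094996, was at percentiles of 3.35 and 13.5 in Trib1_WT, 95.5 and 91.7 in Trib1_LSKO, and 94.9 and 98.7 in AAV_Cebpa, a rank difference of 88.5 points. Chromosome 2, 106907686 to 106907920, was at 20.5 and 18.6 in Trib1_WT, 95.0 and 96.2 in Trib1_LSKO, and 96.9 and 97.8 in AAV_Cebpa. Chromosome 5, 17001483 to 17001720, was at 17.8 and 10.4, then 93.7 and 90.9, then 86.3 and 92.4 in the same order of groups. At each of these 3 sites the knockout libraries stood close to the overexpression libraries and the floxed controls far below. Another of the 5 largest, chromosome 4, 58161411 to 58161734, had Trib1_WT percentiles of 11.0 and 15.1 and Trib1_LSKO percentiles of 91.4 and 92.4.

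Differences toward Trib1_WT were smaller. With a median mean rank of 16.2 in Trib1_WT, most of the 2058 sites had less room to fall than to rise, so the sizes of the 2 directions are not comparable. The most negative, -30.3 points, was at chromosome 6, 108551087 to 108551316, with percentiles of 82.6 and 68.3 in Trib1_WT, 50.2 and 49.0 in Trib1_LSKO, and 5.86 and 12.4 in AAV_Cebpa. This site stood higher in both floxed control lists than in the other 4 lists that held it. Chromosome 19, 5818383 to 5818600, was at 54.7 and 58.9 in Trib1_WT and 25.9 and 22.7 in Trib1_LSKO, yet at 80.7 and 90.0 in AAV_Cebpa. The groups do not overlap at either site, and at the second the overexpression lists did not follow the knockout. Chromosome 12, 120125853 to 120126104, ranked 29.5 points lower in Trib1_LSKO, where its percentiles were 18.2 and 34.1 against 67.1 and 49.9 in Trib1_WT.

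Strength in the floxed livers was set beside these shares by sorting the 34866 sites into 10 equal bins of mean rank over the 4 Trib1 lists. Floxed-bound gained sites were 15.3% of the weakest bin and 0.344% of the strongest, and 1212 of them (58.9%) fell in the 3 weakest bins. The share of sites missing from both AAV_Null lists fell alongside, from 28.0% in the weakest bin to 0.401% in the strongest. In all 10 bins, selected sites had Trib1_LSKO on top more often than the other sites of the bin, and Trib1_WT on top less often. In the weakest bin the shares with Trib1_LSKO on top were 33.3% of 535 selected sites and 15.7% of the others. From the second to the eighth bin they were 55.5% to 59.1% of the selected sites and 20.6% to 24.9% of the others. The strongest bin held only 12 selected sites, 7 of them with Trib1_LSKO on top.

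**Figure D3:**
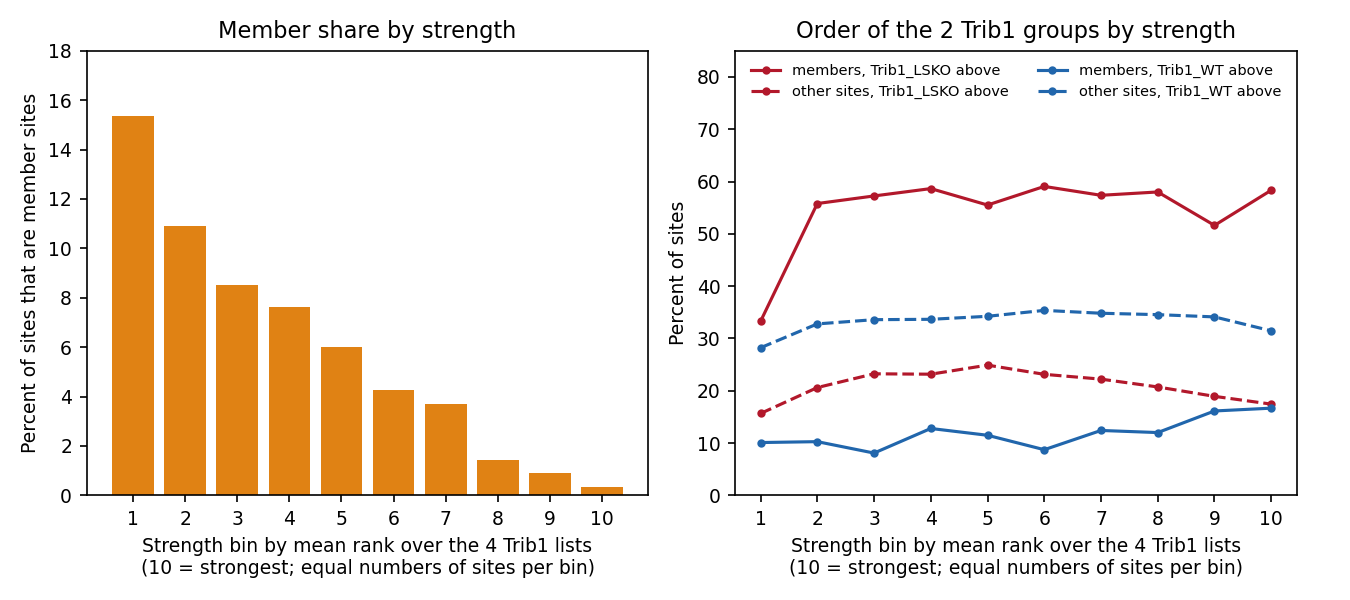
Left, percent of sites that belong to the 2058 in each of 10 bins of mean rank over the 4 Trib1 lists (bin 10 strongest), declining from 15.3% to 0.344%. Right, percent of sites in each bin with both Trib1_LSKO ranks above both Trib1_WT ranks (red) or the reverse (blue), for the 2058 sites (solid lines) and for the other sites called in all 4 Trib1 lists (dashed lines); the solid red line lies above the dashed red line and the solid blue line below the dashed blue line in every bin.

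The order of the floxed groups varied with what the second experiment showed at a site. Among sites called in all 4 Trib1 lists and in no AAV_Null list, Trib1_LSKO was on top at 14.7% of the 760 sites called in no AAV_Cebpa list, at 21.6% of the 453 called in 1, and at 50.8% of the 2058 called in both. The shares with Trib1_WT on top were 40.4%, 25.4% and 10.5%. All 3 sets were weak in Trib1_WT, with median mean ranks of 19.2, 18.9 and 16.2, and they differed in Trib1_LSKO, at 15.1, 20.9 and 31.4. The mirror-image set, 1742 sites called in both AAV_Null lists and no AAV_Cebpa list, had Trib1_LSKO on top at 4.08% and Trib1_WT on top at 53.6%. Sites with a peak in 1 AAV_Null list and both AAV_Cebpa lists lay between the floxed-bound gained sites and those called in all 8 lists, at 41.1% and 18.7%, against 22.0% and 31.4% in all 8. The experiments have separate control libraries.

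**Figure D4:**
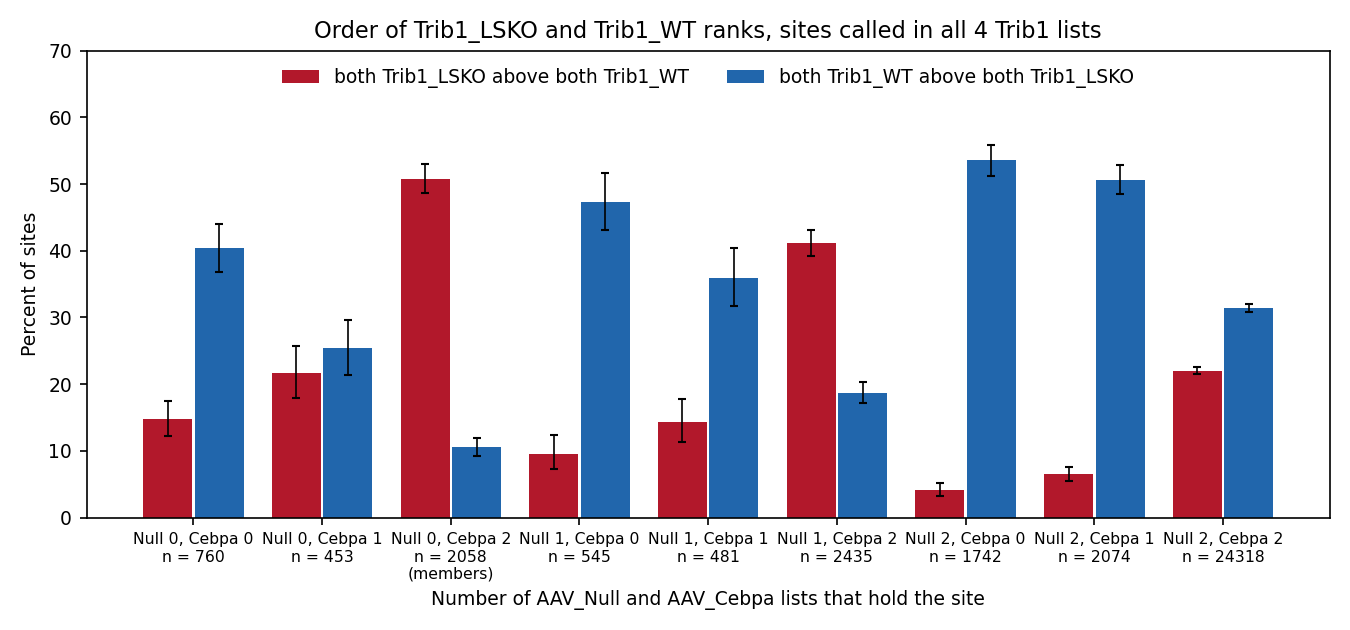
Percent of sites with both Trib1_LSKO ranks above both Trib1_WT ranks (red) and with the reverse order (blue), for the 34866 sites called in all 4 Trib1 lists, by how many AAV_Null and AAV_Cebpa lists hold the site. Error bars are 95% exact binomial intervals over sites; the 2058 selected sites (Null 0, Cebpa 2) have the tallest red bar, 50.8%, and the shortest blue bar, 10.5%.

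Strength in AAV_Cebpa went with the difference between the floxed groups. In the weakest of 4 equal parts by mean AAV_Cebpa percentile, 198 of 515 sites (38.4%) had Trib1_LSKO on top and 59 (11.5%) had Trib1_WT on top. The second part had 222 of 514 (43.2%) and 83 (16.1%), the third 261 of 514 (50.8%) and 48 (9.34%), and the strongest 365 of 515 (70.9%) and 27 (5.24%). The share with Trib1_LSKO on top thus grew from part to part, while that with Trib1_WT on top was highest in the second. Over all 34866 sites called in all 4 Trib1 lists these shares were 22.8% and 32.0%. Other sites were not split by AAV_Cebpa strength, so the single parts have no background. Spearman's coefficient across sites between the rank difference and the mean AAV_Cebpa percentile was 0.32 for the 2058 sites and 0.29 for the 24318 sites called in all 8 lists, so the relation was of similar size in both. Median percentiles went from 25.8 and 20.3 to 50.9 and 42.7 in Trib1_WT, and from 28.0 and 28.7 to 72.3 and 70.7 in Trib1_LSKO. Medians of both groups were higher in the strongest part than in the weakest, and the gap between the groups was wider there. Lists differ in length, so these percentiles are set side by side as a description.

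**Figure D5:**
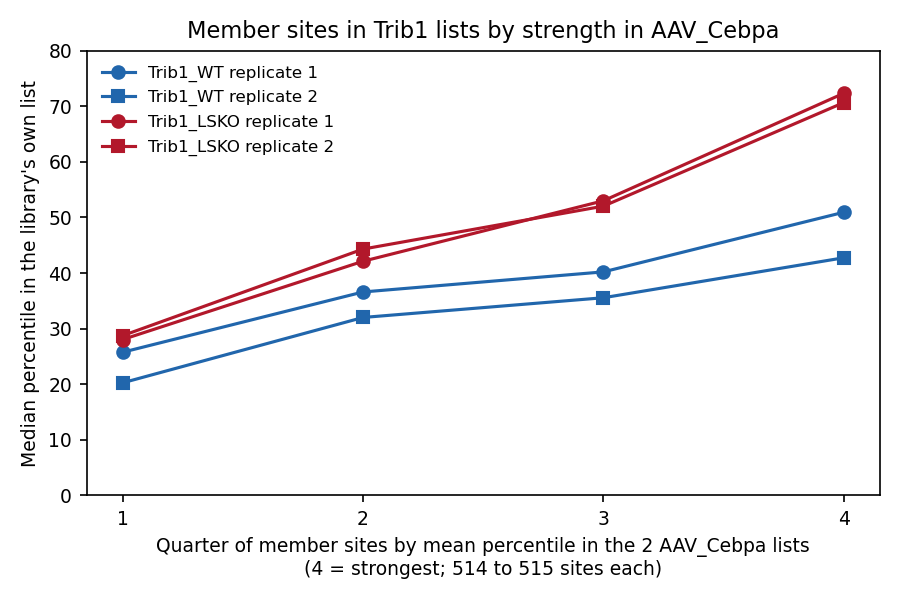
Median percentile of the 2058 sites in each Trib1 library's own list (vertical) for 4 equal parts of the sites by mean percentile in the 2 AAV_Cebpa lists (horizontal, 4 strongest). The Trib1_LSKO libraries (red) reach 72.3 and 70.7 in the strongest part and the Trib1_WT libraries (blue) 50.9 and 42.7.

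The order of the 2058 sites by percentile was described with Spearman coefficients across sites, which share their libraries and depth and are not independent. Between replicates it was 0.85 in Trib1_WT, 0.87 in Trib1_LSKO and 0.94 in AAV_Cebpa. Between Trib1_LSKO and AAV_Cebpa libraries it ran from 0.53 to 0.57, and between Trib1_WT and AAV_Cebpa libraries from 0.29 to 0.34. Across the 24318 sites called in all 8 lists the same ranges were 0.79 to 0.85 and 0.68 to 0.71. In both sets of sites the knockout lists were closer in order to the overexpression lists than the floxed control lists were.

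The strongest of these sites in AAV_Cebpa was chromosome 15, 101414064 to 101414303, at percentiles of 99.6 and 99.7 there. It was at 11.0 and 13.5 in Trib1_WT and at 95.0 and 81.5 in Trib1_LSKO. Chromosome 1, 88830322 to 88830555, was at 99.0 and 99.7 in AAV_Cebpa, 64.7 and 59.6 in Trib1_WT, and 93.5 and 89.0 in Trib1_LSKO. Chromosome 9, 45845023 to 45845251, was at 98.7 and 99.6, then 68.6 and 60.8, then 90.9 and 92.7 in that order of groups. Chromosome 11, 43583688 to 43583921, was at 98.4 and 99.5, then 20.5 and 7.06, then 55.6 and 56.0. At each of these 4 sites both Trib1_LSKO libraries lay above both Trib1_WT libraries. Their place below AAV_Cebpa says little, because the sites were picked for the highest AAV_Cebpa percentiles.

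Joining peaks by overlap keeps the midpoints within a site close together, so the following offsets are a description. The midpoints of the AAV_Cebpa and Trib1 peaks differed by a median of 9.75 bp, and by at most 50 bp at 1990 of the 2058 sites (96.7%). Sites called in all 8 lists had a median offset of 7.25 bp, with 97.4% within 50 bp. Site widths were alike, with medians of 239 bp and 235 bp, a single peak being 200 bp wide.

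Neighbouring AAV_Null peaks were measured next. The nearest AAV_Null peak lay a median of 6989 bp away, and 120 sites (5.83%) had one within 500 bp, against 3.04% of the 12649 gained sites in no Trib1 list and 5.26% of the 760 sites called in the Trib1 lists alone. This share was larger among sites that were stronger in the floxed livers. In the 3 weakest bins 33 of 1212 sites (2.72%, 95% exact binomial interval 1.88% to 3.80%) had such a neighbour, in the next 4 bins 66 of 753 (8.76%), and in the 3 strongest 21 of 93 (22.6%, 14.6% to 32.4%). The closest was at chromosome 6, 119709862 to 119710086, whose midpoint was 212 bp from an AAV_Null peak. It was at 76.9 and 82.1 in Trib1_WT, 82.3 and 80.7 in Trib1_LSKO, and 70.8 and 88.0 in AAV_Cebpa. Chromosome 17, 74297548 to 74297796, with an AAV_Null peak at 222 bp, was at 91.2 and 90.7, then 93.0 and 90.0, then 96.7 and 95.9. At both sites the floxed groups overlapped. Of the 120 sites with such a neighbour, 41 (34.2%, 25.8% to 43.4%) had Trib1_LSKO on top, against 1005 of the other 1938 (51.9%). Whether the neighbouring peaks are separate binding events was not tested.

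A site called in all 8 lists lay within 5 kb of 531 of the 2058 (25.8%, 95% exact binomial interval 23.9% to 27.7%). This share was 18.4% for gained sites in no Trib1 list and 30.2% for sites of the all-8 set toward one another. The median distance was 17395 bp for the floxed-bound gained sites, 22426 bp for gained sites in no Trib1 list and 10599 bp within the all-8 set. The floxed-bound sites were placed between those 2 sets. The 760 sites called in the Trib1 lists alone were at 21.6% and 27475 bp. The 1742 sites called in all 4 Trib1 and both AAV_Null lists but no AAV_Cebpa list were at 33.0% and 10534 bp. These sets were not matched on strength.

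The sites were scattered. The median distance to the next one was 237 kb, and 429 (20.8%) had another within 50 kb. Joined at that distance they formed 165 pairs, 25 groups of 3 and 6 groups of 4, with 1629 sites standing alone. The tightest group of 4 spanned 33.2 kb on chromosome 19, 46174185 to 46207431, among 11 sites of which 4 were called in all 8 lists. Its sites had a mean percentile of 67.2 in the Trib1 lists, and the floxed groups overlapped at all 4. A group on chromosome 6, 28060463 to 28095882, held 4 of its 7 sites from this set, 2 of them with Trib1_LSKO on top. By chromosome, the share of all-4-Trib1 sites that belonged to the set ran from 4.82% on chromosome 8 (95% exact binomial interval 3.88% to 5.91%) to 7.20% on chromosome 2 (6.21% to 8.29%), around the 5.90% of the whole genome. No chromosome was tested. No gene was assigned to a site, and no sequence was read, since genes and sequence of build mm9 were not used here.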

How the data were processed

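C/EBPα ChIP-seq peak lists of 8 libraries, 1 list per library, were used as the authors deposited them, with 1 signal value per 200 bp peak. The tools were Bowtie and HOMER on build mm9, per the submitters' processing notes. Their versions, the use of input, the calling threshold and how duplicates were treated are not given in these sources. Signal values were whole multiples of 1 step per library, within rounding, for 98.1% to 100% of peaks below a signal of 60, and the inverse of the step was taken as relative depth.

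Overlapping peaks (1 bp or more) were joined, giving 113353 sites from 446523 peaks. A site in a list took its strongest peak. Ranks for the Trib1 comparison were taken over sites called in all 4 Trib1 lists, ties sharing their mean rank. "Trib1_LSKO on top" means that the lower of its 2 ranks exceeded the higher Trib1_WT rank. Distances run between midpoints. The sites and the rules for naming were chosen with earlier results of these data known. Named sites are the 5 at each extreme of Trib1 strength, AAV_Cebpa strength (strongest only), rank difference and closeness to AAV_Null peaks, and the 5 largest groups, of which those printed are examples. Python 3.11.15, numpy 2.4.6, pandas 2.3.3 and scipy 1.17.1 were used. The joining and ranking were tested on simulated lists. Motifs and gene lists had been planned and need the mm9 genome. A count test on tags had also been planned and was not run, because the deposited signal is a scaled value and tags were only inferred from its step. The thinning of tags rests on that same inference.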

Additional observations from a re-analysis of the deposited data

How the results depend on the processing

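Of 73 values recomputed under alternatives, 30 moved beyond their counting interval (or a count by more than 1.5 times). Only the difference in median rank could be labelled as reversed, and its sign held in every setting. In all 18 settings for each direction, the share with Trib1_LSKO on top was above that of all sites ranked the same way (1.80 to 2.62 times) and the share with Trib1_WT on top was below it. Taking the strongest 50% of each list gave 1154 sites, 56.7% with Trib1_LSKO on top and 8.06% with Trib1_WT on top. Requiring presence in the strongest 50% and absence in whole lists gave 328 sites, 54.6% and 7.93%. Lists of equal length gave 1271 sites and 53.3% with Trib1_LSKO on top. Percentiles of the full lists gave 47.1% and 13.9%. Leaving out each library in turn gave 2121 to 3326 sites, 46.0% to 63.4% with Trib1_LSKO on top, 10.9% to 21.3% with Trib1_WT on top and a difference in median rank of 12.4 to 17.1 points. With 1 Trib1 library left out, a group of 1 overlaps less easily, and the share with Trib1_WT on top was 16.5% and 21.3% without Trib1_WT replicate 1 and 2, and 20.7% and 19.7% without Trib1_LSKO replicate 1 and 2, against 42.8% to 46.7% of all sites. Other windows and overlaps, thinned tags and autosomes alone changed no verdict. In a replicate block (comparison within replicate numbers), the shares were 58.1% and 14.4% against 28.3% and 41.0% of all sites, and the difference in median rank stayed at 15.4 points (an exact permutation test over 2 pairs cannot go below p = 0.5). Deviations of same-numbered libraries correlated at 0.142 over 34866 sites, and nothing in the labels pairs them. Within 1 kb of an AAV_Null peak were 16.5% of the sites, and within 20 kb of an all-8 site 53.4%. The motif alternatives and the count test on tags were not run. Weak peaks hold few tags (the weakest listed 7 to 12), so absence from a list means not called at that depth.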

Other observations

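A group of 4 floxed-bound gained sites on chromosome 14, 66314974 to 66391544, lay in a stretch of 15 joined sites of which 0 were called in all 8 lists. Its 4 sites had a mean percentile of 77.6 in the Trib1 lists and 47.0 in the AAV_Cebpa lists, with Trib1_LSKO on top at 1 and Trib1_WT on top at 2. A second group of 4 on the same chromosome, 41913465 to 42002105, lay among 21 joined sites of which 9 were called in all 8 lists, with mean percentiles of 56.7 and 68.0. Both groups were singled out after their values were seen.

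By chromosome, the share of floxed-bound gained sites with Trib1_LSKO on top ran from 36.1% of 61 on chromosome 19 to 61.6% of 151 on chromosome 1. The lowest counts with Trib1_WT on top were 4 of 104 on chromosome 13 and 4 of 43 on chromosome X, which held the fewest of these sites. Chromosome 9 had 5 of 90 and chromosome 15 had 5 of 74. The same shares over all sites of each chromosome were not computed, so a trait of these sites cannot be told from one of the chromosome. These shares were not tested.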
